A study of Mus musculus with 4 samples.

Results

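Type I interferon response genes are the antiviral genes that a cell switches on after interferon alpha or beta binds its receptor, and 7 of them were taken here: Ifit1, Ifit2, Ifit3, Oasl1, Isg15, Mx1 and Rsad2. Every probe set whose single gene symbol was one of these was used, which gave 8 probe sets for 6 of the 7 genes, out of 20380 single-gene probe sets and 12393 genes in all. Isg15, the ubiquitin-like modifier of the group, was matched only by a probe set that names several genes. Its signal is not analysed here, and only its promoter is read. The RNA came from 4 sorted myeloid populations of C57BL/6J mice, taken from the large-intestinal lamina propria, which is the connective tissue layer beneath the gut epithelium. Sorting on CD11c, CD11b and high levels of the fractalkine receptor CX3CR1 gave the CX3CR1high macrophages, and cells positive for CD11c and CD11b but negative for CX3CR1 gave the CX3CR1- cells. Cells with CD11b but no CD11c are called CD11b+ cells here, and cells with abundant CD11c but no CD11b are the CD11chigh dendritic cells (DCs). No treatment or genetic change is named in the labels, and the age of the mice, their number and any pooling are not given in the sources used here. Each population was read on 1 Affymetrix array, so no replicates, no spread between samples and no test exist, and all ratios are only as precise as single arrays allow.

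Interferon alpha and beta signal through the receptor pair IFNAR1 and IFNAR2 and the kinases JAK1 and TYK2. The signal ends at the interferon-stimulated response element, a short sequence in the promoters of the target genes that is bound by transcription factors of the pathway. In the gut, commensal microbes are known to keep a low level of this response going without infection, and macrophages and DCs are among the cells that take part in it. Ifit1, Ifit2 and Ifit3 encode RNA-binding proteins that block the translation of viral RNA. Rsad2 encodes viperin, a radical SAM enzyme that makes a chain-terminating nucleotide. Oasl1 encodes a relative of the oligoadenylate synthetases that, in the mouse, restrains translation of the interferon inducer Irf7. Mx1 encodes a dynamin-like GTPase that blocks influenza virus, and laboratory strains such as C57BL/6 are known to carry a defective allele. RefSeq lists Mx1 in C57BL/6J as a transcribed pseudogene, so its signal is that of a transcript and not of an active protein.

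The promoters of the 7 genes were looked up first, to search them for the response element. RefSeq (GRCm38.p6) windows from 250 bases before to 50 bases after the annotated transcript start were found for 6 of the 7, all but Mx1. The core of the response element was searched as GAAANNGAAA on both strands. It was found in 4 of these 6 genes (Ifit1, Ifit3, Isg15 and Rsad2), against 1079 of 27025 genes with a window in the genome (3.99%), or 1131 of 32851 windows (3.44%). The same core was in 20 of 52 other type I interferon targets (38.5%) with a window and in 8 of 15 interferon gamma targets (53.3%). Both Ifit2 windows and the Oasl1 window held no match, which says only that these letters are not in those windows. The windows of the 3 measured genes with a match are shown with that of Oasl1, which had none. Capitals mark the matches, which on the strand shown read as the reverse complement of the core.
Ifit1, chr19:34640639-34640938, plus strand: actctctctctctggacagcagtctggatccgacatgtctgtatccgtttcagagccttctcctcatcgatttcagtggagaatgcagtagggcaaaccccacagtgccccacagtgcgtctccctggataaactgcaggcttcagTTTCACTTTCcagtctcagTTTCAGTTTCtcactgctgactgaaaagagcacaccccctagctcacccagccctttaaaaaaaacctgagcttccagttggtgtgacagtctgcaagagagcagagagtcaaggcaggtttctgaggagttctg
Ifit3, chr19:34583279-34583578, plus strand: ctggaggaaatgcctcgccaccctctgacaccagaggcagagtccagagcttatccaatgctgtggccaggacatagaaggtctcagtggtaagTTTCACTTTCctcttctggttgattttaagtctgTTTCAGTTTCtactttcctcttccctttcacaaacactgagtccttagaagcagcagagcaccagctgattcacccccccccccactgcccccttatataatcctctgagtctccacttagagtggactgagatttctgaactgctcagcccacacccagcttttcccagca
Rsad2, chr12:26456403-26456702, minus strand: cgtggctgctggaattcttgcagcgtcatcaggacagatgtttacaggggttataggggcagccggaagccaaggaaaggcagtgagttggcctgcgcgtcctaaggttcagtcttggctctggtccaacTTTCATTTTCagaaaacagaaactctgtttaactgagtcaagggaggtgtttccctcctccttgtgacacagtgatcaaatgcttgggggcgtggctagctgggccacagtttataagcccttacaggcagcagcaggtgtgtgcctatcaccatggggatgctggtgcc
Oasl1, chr5:114922990-114923289, plus strand: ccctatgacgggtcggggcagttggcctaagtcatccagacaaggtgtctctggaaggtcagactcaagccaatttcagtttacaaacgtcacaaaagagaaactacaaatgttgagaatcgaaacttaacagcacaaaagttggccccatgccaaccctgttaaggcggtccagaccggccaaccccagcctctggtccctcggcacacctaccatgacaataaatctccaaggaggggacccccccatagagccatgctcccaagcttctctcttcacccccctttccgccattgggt

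In Ifit1 the matches began 104 and 85 bases before the transcript start, and in Ifit3 they began 156 and 122 bases before it. The match TTTCACTTTC was the farther of each pair and TTTCAGTTTC the nearer of each pair. Rsad2 held 1 match, which began 120 bases before the start. The 3 matches of Isg15 overlapped each other. In the annotation Ifit2, Ifit3 and Ifit1 lie in 1 cluster on chromosome 19, and Ifit1bl1, Ifit3b and Ifit1bl2 lie between Ifit3 and Ifit1. No probe set of the array names any of those 3 relatives, and whether the Ifit3 and Ifit1 probe sets also read them was not tested.

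**Figure D1:**
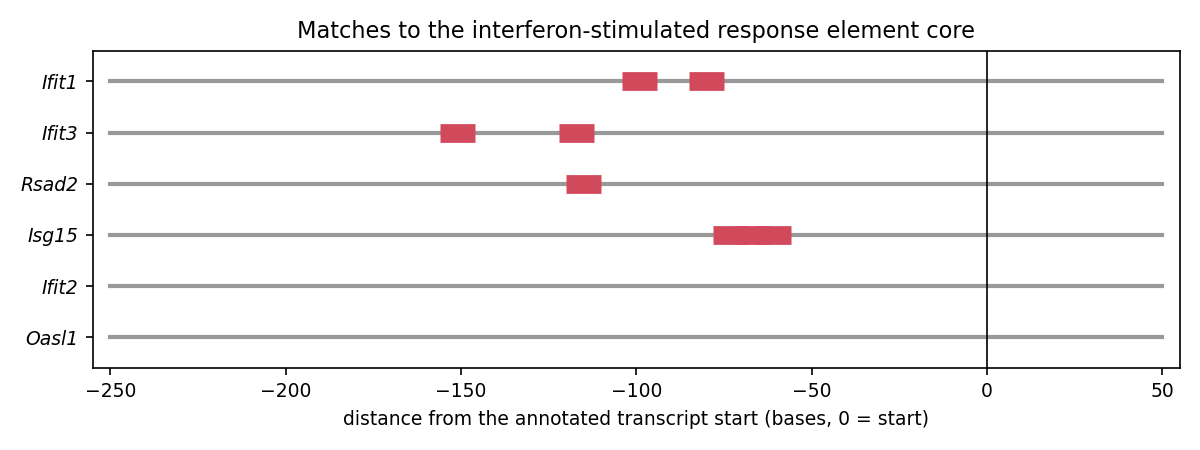
Positions of matches to the response element core in the promoter windows of the 6 genes with a window, as distance in bases from the annotated transcript start (0). Red blocks are matches on either strand, which in Ifit1, Ifit3, Rsad2 and Isg15 lie within 156 bases before the start; Ifit2 and Oasl1 have none.

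Signals are in linear intensity units that the authors scaled to a common trimmed mean. Signals under 103, the pooled median over the 4 arrays without control probe sets, were raised to this floor, so that a ratio against a signal under it can only be given as at least that large. A difference of 2-fold or more is called. The median signal was 109.7 in the CX3CR1high macrophages, 103 in the CX3CR1- cells, 110.2 in the CD11b+ cells and 88.5 in the DCs. The Gapdh control signal from the tail end of the transcript over that from its front end, which is larger in degraded RNA, stood at 1.08, 3.40, 2.17 and 0.791 in the same order. For Actb it was 1.68, 2.76, 3.18 and 1.11, so the DCs were lowest by both controls, while the highest array was the CX3CR1- array by Gapdh and the CD11b+ array by Actb. Among the genes of the sorting markers, Cx3cr1 was 5.15-fold higher in the CX3CR1high macrophages (1499) than in the CX3CR1- cells (291), and the CD11b gene Itgam did not reach the floor in DCs (45.9). Itgax, which encodes CD11c, stood at 1864 in the CD11b+ cells, which were sorted without CD11c, and at 1826 in the CX3CR1high macrophages, which were sorted with it.

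All 6 measured genes had their highest signal in the CX3CR1high macrophages. Among the 7847 genes that reached the floor on at least 1 array, the signal was highest in this population for 25.9%. The 6 genes were chosen with earlier results of these data known, so this contrast is a description and not independent support. Ifit1, Ifit3, Oasl1 and Rsad2 had their lowest signal in the DCs, where 38.2% of genes were lowest, while Ifit2 was lowest in the CD11b+ cells and Mx1 in the CX3CR1- cells. All 6 genes reached the floor in the CX3CR1high macrophages, the CX3CR1- cells and the CD11b+ cells, and 4 of the 6 reached it in the DCs. In these mixed cell sorts, fewer responding cells and less RNA per cell cannot be told apart.

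Among the RNA-binding Ifit proteins, Ifit1 (1450783_at) had signals of 968 in the CX3CR1high macrophages, 865 in the CX3CR1- cells, 487 in the CD11b+ cells and 90.7 in the DCs. The CX3CR1high macrophages and the CX3CR1- cells were close (1.12-fold), the CD11b+ cells were intermediate, and the DCs were under the floor. The ratio to the DCs was at least 9.41-fold for the CX3CR1high macrophages, at least 8.40-fold for the CX3CR1- cells and at least 4.74-fold for the CD11b+ cells. Ifit1 was the member in which the CX3CR1- cells came nearest to the CX3CR1high macrophages.

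Ifit3 (1449025_at) had signals of 454 in the CX3CR1high macrophages, 229.9 in the CX3CR1- cells, 239.6 in the CD11b+ cells and 72.6 in the DCs. The middle populations could not be ordered, at 0.959-fold for the CX3CR1- cells over the CD11b+ cells, and the DCs were again under the floor. The CX3CR1high macrophages were at least 4.41-fold above the DCs, 1.97-fold above the CX3CR1- cells and 1.89-fold above the CD11b+ cells, so the last 2 ratios lay just under the 2-fold limit.

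Ifit2 (1418293_at) behaved differently toward the DCs. Its signals were 557 in the CX3CR1high macrophages, 252 in the CX3CR1- cells, 183 in the CD11b+ cells and 193 in the DCs. Only the CX3CR1high macrophages stood apart in this gene, at 2.21-fold over the CX3CR1- cells, 3.05-fold over the CD11b+ cells and 2.89-fold over the DCs. The CX3CR1- cells, the CD11b+ cells and the DCs were all within 1.38-fold of each other.

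Rsad2, the viperin gene, was read by 3 probe sets. The one used for the gene (1436058_at) gave 4633 in the CX3CR1high macrophages, 2291 in the CX3CR1- cells, 2819 in the CD11b+ cells and 603 in the DCs. A further one (1421009_at) gave 1192, 546, 641 and 130.5 in the same order, and the last (1421008_at) gave 390.0, 107, 169.6 and 86.3. All 3 put the populations in the same order, with the CX3CR1high macrophages first, then the CD11b+ cells, the CX3CR1- cells and the DCs. They differed in size: the ratio to the CX3CR1- cells was 2.02-fold, 2.18-fold and 3.66-fold, and that to the CD11b+ cells was 1.64-fold, 1.86-fold and 2.30-fold. Over the DCs it was 7.69-fold, 9.14-fold and at least 3.79-fold, the last limited by the floor. The ratio of the CX3CR1high macrophages to the CD11b+ cells therefore passed 2-fold in 1 of the 3 probe sets.

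Oasl1 (1424339_at) fell off in steps. It had signals of 2929 in the CX3CR1high macrophages, 1171 in the CX3CR1- cells, 799.8 in the CD11b+ cells and 381 in the DCs. Every ratio of the CX3CR1high macrophages passed the 2-fold limit, at 2.50-fold over the CX3CR1- cells, 3.66-fold over the CD11b+ cells and 7.69-fold over the DCs. The same held for Ifit2. Between the others, the CX3CR1- cells were 1.46-fold above the CD11b+ cells, and the CD11b+ cells were 2.10-fold above the DCs.

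Mx1 (1451905_a_at, a probe set of a type that can match more than 1 transcript) had the narrowest span. Its signals were 508 in the CX3CR1high macrophages, 250.3 in the CX3CR1- cells, 273 in the CD11b+ cells and 314 in the DCs. The CX3CR1high macrophages were 2.03-fold above the CX3CR1- cells, 1.86-fold above the CD11b+ cells and 1.62-fold above the DCs. Unlike Ifit1, Ifit3, Oasl1 and Rsad2, Mx1 was not lowest in the DCs, where its signal came second.

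**Figure D2:**
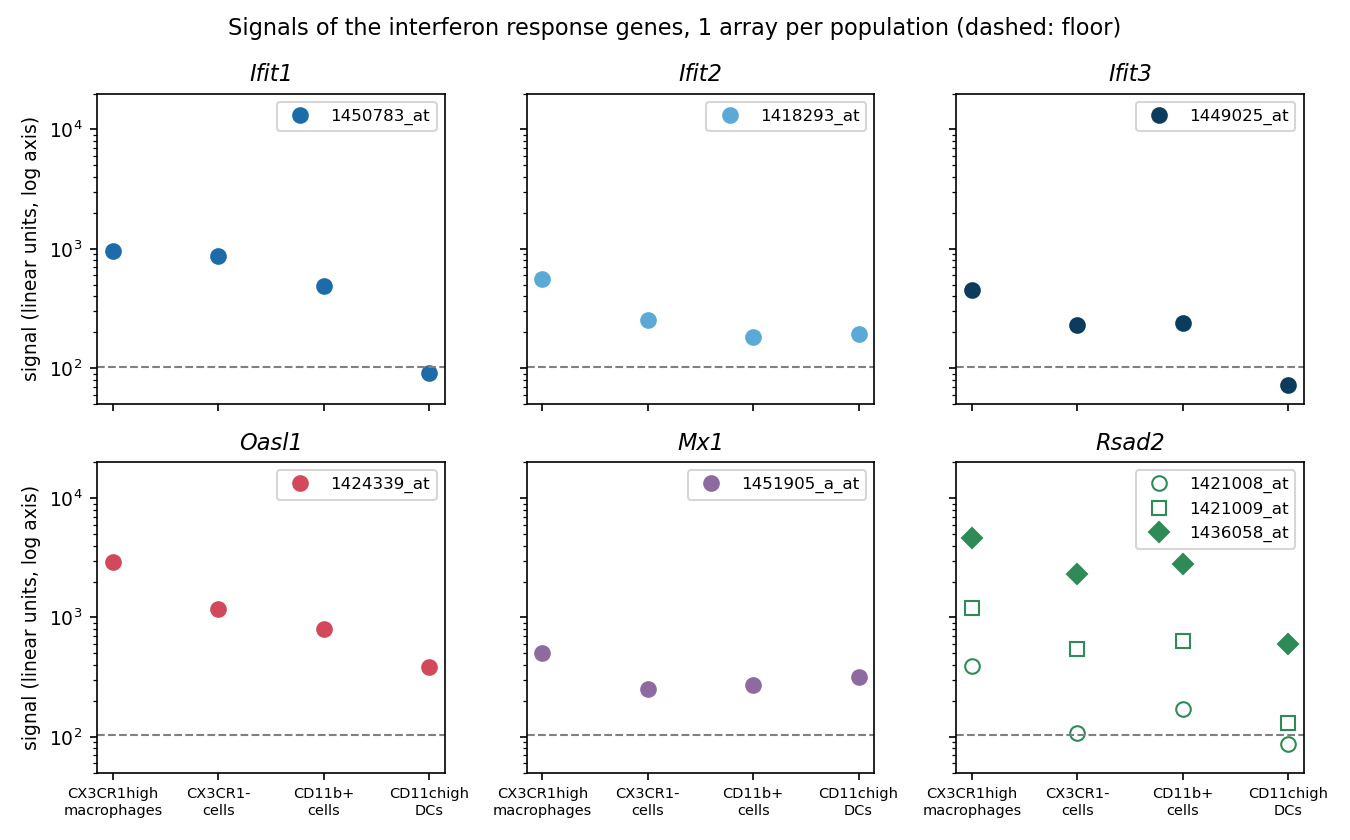
Signal of each probe set of the 6 measured genes (linear intensity units on a log axis) in the 4 populations, 1 array each; the dashed line is the floor of 103, and open symbols are the further Rsad2 probe sets. The CX3CR1high macrophages are highest in all 8 probe sets, and the DCs are under the floor for Ifit1, Ifit3 and 1 Rsad2 probe set.

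Read pair by pair, the count of the 6 genes called was set beside the share of all genes with a ratio that passed the same limit. Because the 6 genes were chosen with earlier results of these data known, the shares serve as a scale and not as a test. Over the CX3CR1- cells, 4 of 6 genes were at least 2-fold higher in the CX3CR1high macrophages (Ifit2, Oasl1, Mx1 and Rsad2), where 8.56% of 7462 genes were. The median log2 ratio was 1.02 for the 6 genes and 0.02 for all genes. Over the CD11b+ cells, 2 of 6 genes were higher (Ifit2 and Oasl1), where 4.66% of 7512 genes were. The other 4 ran from 1.64-fold to 1.99-fold, and the median log2 ratio was 0.96 for the 6 genes and -0.02 for all genes. Over the DCs, 5 of 6 genes were higher, all but Mx1, where 17.4% of 7480 genes were. The median log2 ratio was 2.54 for the 6 genes and 0.02 for all genes. In none of these 3 comparisons was any of the 6 genes called lower, where 6.54%, 5.83% and 10.2% of genes were. The 3 comparisons share the CX3CR1high array, so a deviation of that array would move all of them together.

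In the other 3 pairs, genes were called only over the DCs. Over the DCs, 4 of 6 genes (Ifit1, Ifit3, Oasl1 and Rsad2) were higher in the CX3CR1- cells, where 13.7% of genes were (8.70% were lower). The median log2 ratio in this pair was 1.39 for the 6 genes and 0.04 for all genes. The same 4 genes were higher in the CD11b+ cells than in the DCs, where 17.0% of genes were (10.4% were lower), with medians of 1.14 and 0.07. Ifit2 and Mx1 were within 2-fold in both of these pairs. Between the CX3CR1- cells and the CD11b+ cells, 0 of 6 genes differed by 2-fold either way, where 3.55% of genes were higher and 5.19% lower. A list of 6 would hold few calls at these shares. The ratios of the 6 genes ran from 0.813-fold (Rsad2) to 1.77-fold (Ifit1), with a median log2 ratio of 0.20. Where a gene has several probe sets, their log2 ratios in 1 pair of arrays differed from each other with an SD of 0.31 to 0.52 over the 6 pairs, which leaves out any difference between mice or sorts.

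Scaling bears on the pairs with the DCs. With the arrays set to equal medians, the median log2 ratio of all genes moved to -0.27 for the CX3CR1high macrophages, -0.16 for the CX3CR1- cells and -0.22 for the CD11b+ cells over the DCs. The share of higher genes among all genes called was then 42.1%, 43.4% and 41.6%, against 63.1%, 61.2% and 62.0% on the authors' scale. For the CX3CR1- cells over the CD11b+ cells it was 51.4%, against 40.6% on the authors' scale, and for the CX3CR1high macrophages over the CX3CR1- cells it was 48.8%, against 56.7%. Under that scaling 5 of 6 genes were still at least 2-fold above the DCs in the CX3CR1high macrophages, but only 2 of 6 were above the CX3CR1- cells, since Rsad2 (1.90-fold) and Mx1 dropped under the limit. Oasl1 in the CD11b+ cells over the DCs dropped to 1.69-fold.

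**Figure D3:**
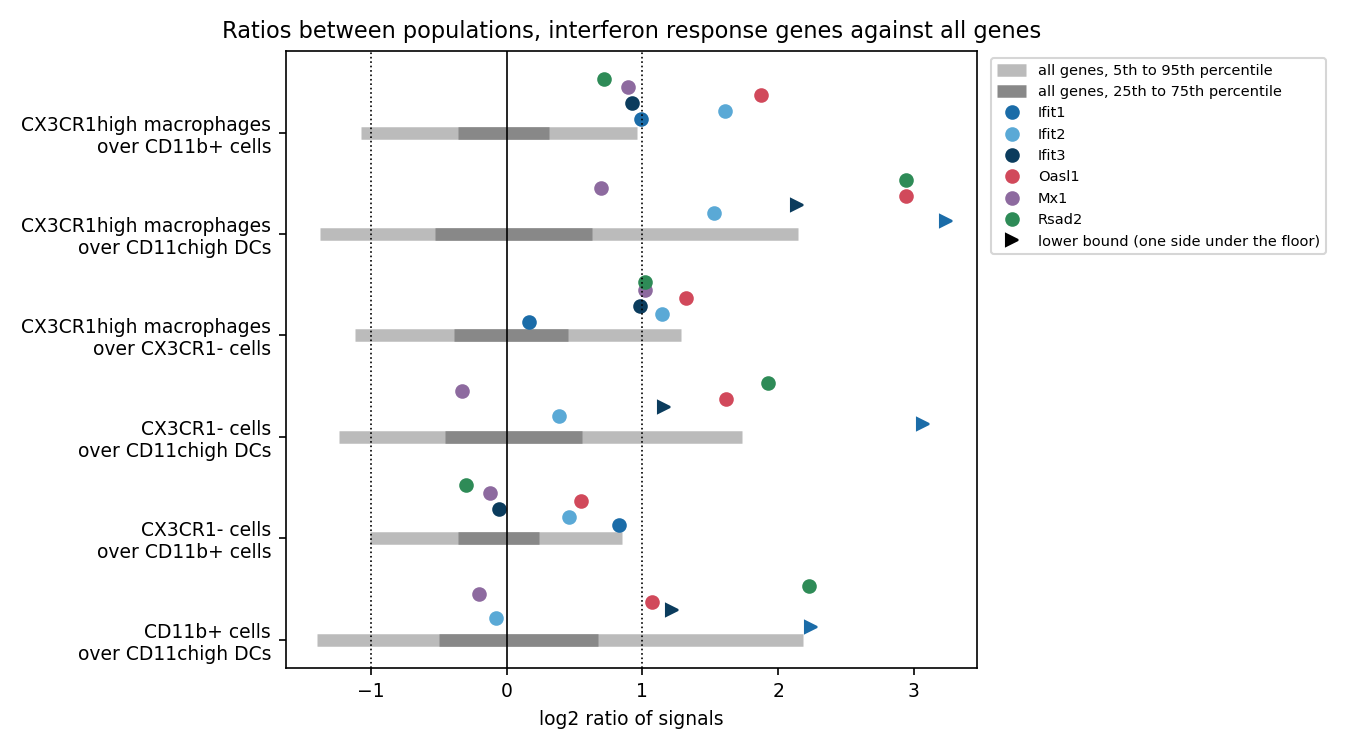
Log2 ratio of signals in 6 pairs of populations for the 6 genes (circles; triangles are lower bounds) above bars that span all genes with a ratio, from the 5th to the 95th (light) and the 25th to the 75th (dark) percentile. Dotted lines mark 2-fold; all 6 genes lie right of 0 in the 3 pairs of the CX3CR1high macrophages, and within 2-fold between the CX3CR1- and CD11b+ cells.

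The 6 genes did not share 1 profile. Each gene's floored log2 signals were centred on their own mean over the 4 populations, and profiles were compared by their root mean square difference. The closest pairs were Ifit2 with Mx1 (0.36), Ifit3 with Oasl1 (0.38) and Ifit3 with Rsad2 (0.38). The farthest pairs were Ifit1 with Mx1 (1.27) and Ifit1 with Ifit2 (1.03), although Ifit1 and Ifit2 belong to 1 gene family and 1 cluster. The median profile of the 6 genes was 1.08 in the CX3CR1high macrophages, 0.09 in the CX3CR1- cells, -0.08 in the CD11b+ cells and -1.27 in the DCs. Ifit3 lay closest to it (0.12) and Mx1 farthest (0.70).

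Genes that are not in the pathway lists used here also lay near this profile. The 8 other genes nearest to it, over 4 arrays, were Zdhhc14 (0.07), Podxl (0.10), Sphk1 (0.11), Slc29a1, Atp6v1a, Chchd10, Arhgef3 and Slc37a2 (0.14), and none of them is in those lists. Sphk1, which encodes a sphingosine kinase, had signals of 2100 in the CX3CR1high macrophages, 1214 in the CX3CR1- cells, 1120 in the CD11b+ cells and 478 in the DCs. Atp6v1a, which encodes a subunit of the lysosomal proton pump, had 6328, 3032, 3336 and 1241 in the same order. Of 7736 other genes, 3 were closer to the median profile than Ifit3 was, 93 closer than Oasl1 and 1704 closer than Mx1. Each response gene helped to set that profile, so these ranks favour the response genes.

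The ligands were near or under the limit of the arrays. Of 19 interferon genes listed, 9 had a probe set, and only Ifnb1, which encodes interferon beta, reached the floor on any array. The Ifnb1 signal was 189.7 in the CX3CR1high macrophages, against 83.3 in the CX3CR1- cells, 80.5 in the CD11b+ cells and 33.5 in the DCs, all 3 under the floor. Its ratio was at least 1.84-fold over each of them and so was not called. Ifng, the interferon of T and NK cells, lay between 11.6 and 45.1 and was under the floor on every array.

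Among sensors of viral nucleic acid and inducers of interferon, the CX3CR1high macrophages exceeded the DCs in 5 of 13 genes and fell below them in 2 of 13, where 17.4% and 10.2% of all genes did. Ifih1, which encodes the double-stranded RNA sensor MDA5 and is itself an interferon target, had signals of 1263 in the CX3CR1high macrophages, 1063 in the CX3CR1- cells, 784 in the CD11b+ cells and 273 in the DCs, in the same order as Ifit1 and Oasl1. Tlr7, a receptor for single-stranded RNA, was the one gene of this list called in all 3 comparisons. Its signal in the CX3CR1high macrophages was 6.29-fold higher than in the CX3CR1- cells, 3.14-fold higher than in the CD11b+ cells and at least 8.40-fold higher than in the DCs (864 against 137, 275 and 28.7). Tlr3, a receptor for double-stranded RNA, went the other way, with 84.9 in the CX3CR1high macrophages and 309 in the DCs. Ikbke, a kinase that activates interferon inducers, was at least 19.0-fold higher in CX3CR1high macrophages than in DCs (1959 against 51.7), but its signal was higher still in the CD11b+ cells (2619), and it was 1074 in the CX3CR1- cells. Irf7, an inducer of interferon alpha genes and an interferon target, had its highest signal in the CD11b+ cells, at 552 in the CX3CR1high macrophages, 363 in the CX3CR1- cells, 1025 in the CD11b+ cells and 358 in the DCs.

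The list of 9 measured receptor and signalling genes did not follow the 6 response genes. It also holds Ifngr1, Ifngr2 and Jak2, which serve the receptor of interferon gamma. Set against the DCs, the CX3CR1high macrophages had a higher signal for 1 of 9 (Jak1, 2330 against 1124, 2.07-fold), where 17.4% of all genes were higher. Lower were 3 of 9 (Tyk2, 398 against 820, Ifngr1, 944 against 2694, and Jak2, 1878 against 7962), where 10.2% of all genes were. The median log2 ratio of the 9 genes was -0.65. Among the genes of the type I chain, only Jak1 was called higher and only Tyk2 lower, so these were split. Ifnar1 had signals of 976 in the CX3CR1high macrophages, 992 in the CX3CR1- cells, 1243 in the CD11b+ cells and 1530 in the DCs, and Ifnar2 had 2587, 1607, 2550.1 and 1553 in the same order. Irf9 stood at 558, 394, 554 and 501 in that order, and Stat2 reached the floor only in the DCs (199). Among 8 negative regulators, only Socs3 was called over the DCs, 2.15-fold higher in CX3CR1high macrophages, where 17.4% of all genes were higher. Only Ptpn2 was called against the CX3CR1- cells, 2.15-fold lower in CX3CR1high macrophages, where 6.54% of all genes were lower. No gene passed 2-fold either way against the CD11b+ cells, where 4.66% of all genes were higher and 5.83% lower. A list of 8 would hold few calls at these shares. Usp18, which strips Isg15 from proteins and blocks the receptor, is a classical interferon target. Its signal was 340 in the CX3CR1high macrophages, 423 in the CX3CR1- cells, 180 in the CD11b+ cells and 251 in the DCs, so it was highest in another population than the 6 genes.

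A wider list of 69 other type I interferon targets had 53 genes with a probe set, of which 47 reached the floor on at least 1 array. Of these 47, 18 were highest in the CX3CR1high macrophages, 5 in the CX3CR1- cells, 18 in the CD11b+ cells and 6 in the DCs, where 25.9%, 18.3%, 23.4% and 32.4% of all genes at the floor were. Against the CX3CR1- cells 8 of 45 were higher and 4 lower (median log2 ratio 0.21), where 8.56% and 6.54% of all genes were. Against the CD11b+ cells 0 of 47 were higher and 4 lower, with a median of -0.06, counts that lie near the shares of all genes (4.66% higher and 5.83% lower). Against the DCs 15 of 45 were higher and 3 lower, with a median of 0.52, where 17.4% and 10.2% of all genes were. Rtp4, a chaperone for receptor transport, had the widest span, with signals of 1893 in the CX3CR1high macrophages, 577 in the CX3CR1- cells, 1213 in the CD11b+ cells and 122 in the DCs. The oligoadenylate synthetase genes Oas1a (2104.5, 1082, 1943 and 262 in the same order) and Oas2 (582, 188, 502 and 28.1) were also low in the DCs. In both of them, however, the CD11b+ cells came within 1.16-fold of the CX3CR1high macrophages. Parp14, an ADP-ribosyltransferase, was 5.97-fold higher in CX3CR1high macrophages than in DCs and 1.02-fold the signal of the CD11b+ cells, and the guanylate-binding protein Gbp7 was 7.57-fold and 1.92-fold. Ms4a4c was highest in the CD11b+ cells (692 in the CX3CR1high macrophages, 1570 in the CX3CR1- cells, 2210 in the CD11b+ cells and 220.5 in the DCs). The membrane proteins Ifitm2 and Ifitm3, which block virus entry, and Slfn2 had signals of at least 7696 in every population and were within 2-fold in all 3 comparisons.

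Interferon gamma targets were mixed. Of 16 that reached the floor, 2 were highest in the CX3CR1high macrophages, 2 in the CX3CR1- cells, 5 in the CD11b+ cells and 7 in the DCs. All genes at the floor divided as 25.9%, 18.3%, 23.4% and 32.4% in that order. Against the DCs, over which 17.4% of all genes were higher and 10.2% lower, 6 of 16 were higher, all of them interferon-inducible GTPases, among them Iigp1 (1753 against 251, 6.97-fold) and Gbp3 (1558 against 433, 3.60-fold). Lower were 4 of 16: the chemokine Cxcl9 (1923 against 8052), the immunoproteasome subunits Psmb8 (2963 against 10416) and Psmb9 (1282 against 7308), and the peptide transporter Tap1 (1226 against 4685). The DCs, which had the lowest signals for Ifit1, Ifit3, Oasl1 and Rsad2, had the highest signals for Cxcl9, Psmb8, Psmb9 and Tap1. The response element core was in 53.3% of the interferon gamma targets and 38.5% of the other type I targets with a window. The lists therefore do not separate the 2 kinds of interferon by this sequence, and which of them these genes respond to here was not tested. Against the CD11b+ cells 0 of 15 were higher and 0 lower, where 4.66% and 5.83% of all genes were, so a list of this length would hold few calls at the background.

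**Figure D4:**
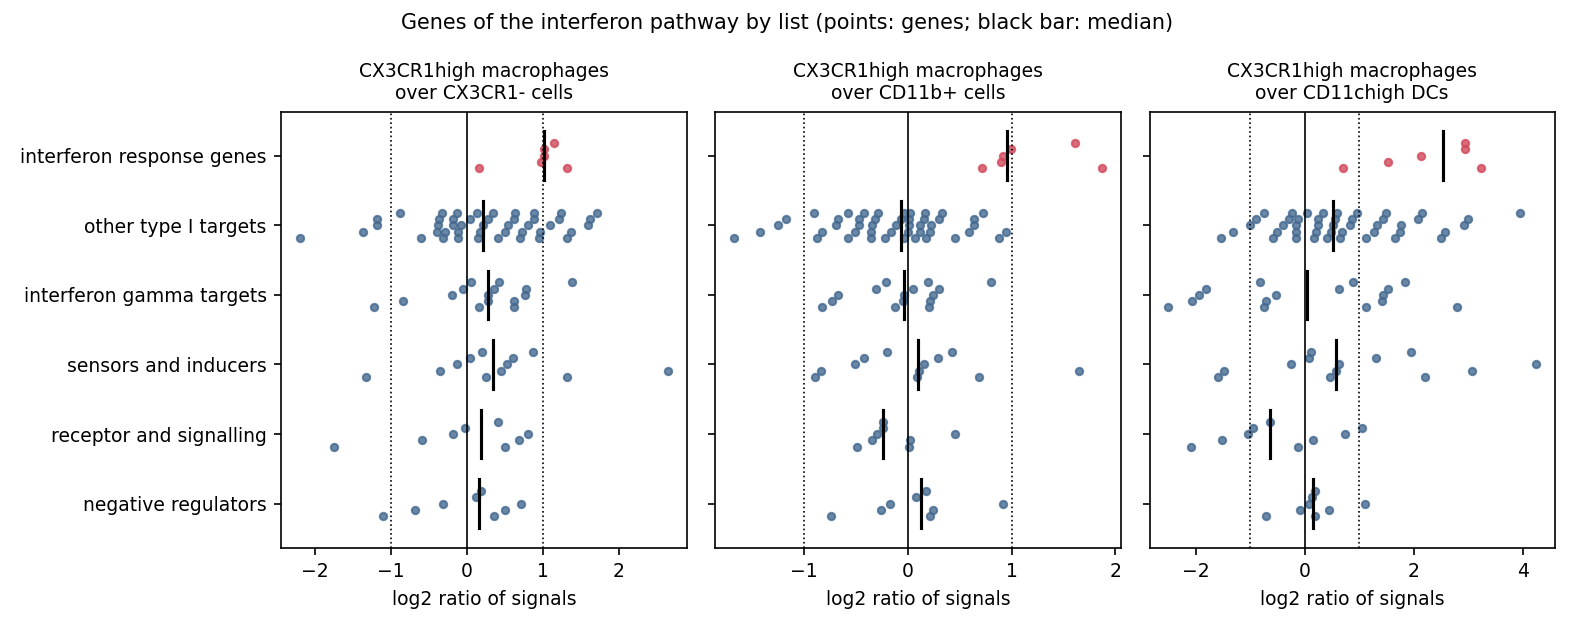
Log2 ratio of signals of the CX3CR1high macrophages over the CX3CR1- cells, the CD11b+ cells and the DCs for the 6 interferon response genes (red) and for genes of 5 pathway lists (blue), 1 point per gene with a ratio, bounds at their bound and 2-fold as dotted lines. Black bars are medians; the median of the 6 genes is 1.02, 0.96 and 2.54, and that of the other type I targets 0.21, -0.06 and 0.52.

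Markers of cell types and of handling moved with the response genes to different degrees, and their part in the result was not tested. All 8 macrophage markers (Csf1r, Cd68, Adgre1, Mertk, Fcgr1, C1qa, C1qc and Mrc1) were also highest in the CX3CR1high macrophages. Of all genes at the floor on at least 1 array, 25.9% were highest there. The macrophage markers had a summed signal of 122459 in the CX3CR1high macrophages, 52834 in the CX3CR1- cells, 68074 in the CD11b+ cells and 11813 in the DCs. Of 8 epithelial markers, 7 were highest in the CX3CR1high macrophages, against the same 25.9% of all genes. Their sums were 23626, 6569, 2640 and 3913 in the same order. Krt8 (6182, 2530, 932 and 1192) and Epcam (1357, 839, 443 and 908.5) were above the floor on every array, as were Krt18, Cdh1, Car1 and Lypd8. Krt20 (570, 56.0, 31.3 and 53.7) and Slc26a3 (660, 42.7, 37.8 and 26.6) reached it only in the CX3CR1high macrophages. Cdh1 was the marker highest in the CX3CR1- cells (640, 800, 143 and 496). Lypd8 gave the largest part of the sum in the CX3CR1high macrophages (11122). Of 5 plasmacytoid DC markers, which mark the cells best known for making interferon alpha, 4 reached the floor on some array. Of these 4, 1 was highest in the CX3CR1high macrophages, which is near the share of all genes (25.9%). The sums of the 5 markers were 1601, 1353, 1917 and 677, of which Tcf4 gave the largest part on each array (1250, 980, 1152 and 318). Ly6d added 518 in the CD11b+ cells, and the further listed marker Siglech had no value. Monocyte markers (sums of 1263, 1086, 15841 and 711) and neutrophil markers (sums of 2129, 622, 9067 and 269) were highest in the CD11b+ cells, in which none of the 6 response genes was highest. In the CD11b+ cells Chil3 (13237) gave the largest part of the monocyte sum, and S100a8 (4058) and S100a9 (3416) that of the neutrophil sum. The neutrophil markers Ngp (222), Ltf (118) and Camp (104) were far lower there, the last 2 near the floor. Of 15 immediate early genes, which respond to tissue digestion and sorting, 12 were also highest in the CD11b+ cells, where 23.4% of all genes at the floor were. The sums of the immediate early genes were 172747, 141571, 217826 and 80642 in the same order, with the DCs lowest, as in 4 of the 6 response genes. Conventional DC markers summed to 3892, 4841, 2832 and 18583 in that order. In the CX3CR1high macrophages, 4 of 5 with a ratio to the CX3CR1- cells were called lower and 1 higher. Flt3 stood at 19.0 against 837 and Dpp4 at 129 against 759, while Irf8 went the other way (3272 against 1619). Fibroblast and endothelial markers summed to 11001, 15467, 45083 and 3823. Jchain, from a list of lymphocyte markers, stood at 18478, 10329, 34144 and 10118.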

How the data were processed

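Biotin-labelled RNA of each of 4 sorted populations was read on 1 Affymetrix array, per the labels. The authors deposited a linear signal intensity for every probe set and used MAS5, per the submitters' processing notes, whose version was not given in the sources used here. The mean with 2% trimmed from each end was 500.3 on every array and the lowest value was 1, so the authors' scaling was kept. Signals near the lowest values are mostly background, hence the floor.

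Probe sets naming 1 gene in the platform's table were used (20380 of 22690; 691 named several, 1555 none, and 64 were controls). Entrez numbers of 99.8% of genes were found in RefSeq and 0 symbols changed. Each gene was read from its probe set of highest mean log2 signal, preferring those not ending in _x_at. All Rsad2 probe sets are given. Signals below the pooled median were set to it, and a gene with both sides below it has no ratio. With 1 array per population no test could be run.

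The response genes and pathway lists were chosen with earlier results of these data known. Target genes named are the 6 of widest span and the 3 of highest signal in each of the 2 target lists. Nearest genes are the 8 with the least root mean square difference, with Riken and predicted names passed over. The 8 alternatives were no floor, a floor at the 25th or at the 75th percentile of the pooled signals, adding the 25th percentile as a pseudocount, equal medians, quantile normalization, the mean over probe sets, and leaving out shared probe set types (_s_at, _x_at, _a_at). The ratio procedure was tested on simulated data. Python 3.11.15, numpy 2.4.6 and pandas 2.3.3 were used.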

Additional observations from a re-analysis of the deposited data

How the results depend on the processing

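All 6 response genes kept their highest signal in the CX3CR1high macrophages under the 7 alternatives that keep every probe set. So did the 5 left without shared probe set types, which drops Mx1 and leaves the 5 on the same probe sets. A floor, no floor or a pseudocount cannot change which population is highest in a gene. Only equal medians, quantile normalization and, for Rsad2, the mean over probe sets could have changed it. Of 48 counts of genes at least 2-fold higher, 42 stayed within 1.5 times, and of 48 medians 43 moved by less than the SD between probe sets; none changed sign past 2-fold. With the floor at the pooled 75th percentile, a signal of 453, the counts for the CX3CR1high macrophages were 1 of 6 over the CD11b+ cells, 3 of 6 over the DCs and 2 of 6 over the CX3CR1- cells. Their median log2 ratios were 0.51, 0.70 and 0.23. Under that floor 2 of 3 genes were higher in the CX3CR1- cells and 1 of 3 in the CD11b+ cells than in the DCs, and the median for the CX3CR1- cells over the CD11b+ cells was 0.55. That floor lies above most signals of Ifit2, Ifit3 and Mx1 outside the CX3CR1high macrophages, which sets their ratios to small bounds. With equal medians 2 of 6 genes were higher in the CX3CR1high macrophages than in the CX3CR1- cells. Without shared probe set types the median over the DCs was 2.94. With quantile normalization Ifit1 passed the limit over the CD11b+ cells, at 2.02-fold. The sign for Ifit3 between the CX3CR1- cells and the CD11b+ cells turned under 2 alternatives. No paired analysis was possible because each population has 1 array and the labels give no replicate numbers. Dim signals limit Ifit1 and Ifit3 in the DCs to bounds.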
